A study of Mus musculus with 10 samples.

Results

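A set of 9 genes read differently on arrays of adeno-treated and untreated normoxic mouse hepatocytes: Lrp5, Smad4, Rhoq, Mbd1, Zfp36l1, Uhmk1, Ptms, Man2c1 and Trp53inp2. They were chosen by the difference in intensity between those 4 normoxic arrays, and the question asked of them is where the hypoxic cells lie relative to each control. All 9 genes were found through the platform's gene symbols, on 11 of the 12488 probe sets. Of these, 10 were bright enough to be tested, among 7453 tested in all. Uhmk1 has 3 probe sets and each of the other genes 1.

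Total RNA was measured on 10 arrays, 1 per sample, in 4 groups that the labels number within each group. There were 3 hypoxic samples that are HIF-1alpha null, 3 hypoxic, adeno-treated wild-type samples, 2 normoxic adeno-treated samples and 2 normoxic untreated samples. All are hepatocytes, and there was no normoxic null group. The labels do not say what the adeno agent carried, whether null cells also received it, or by what means HIF-1alpha was lost. They give no genotype for normoxic cells, and neither oxygen tension nor duration of hypoxia. Nothing says that replicates came from separate cultures, so p-values measure only the spread between these samples, which may be technical. HIF-1alpha is the subunit of a transcription factor that builds up in low oxygen and turns on genes of glucose uptake and blood vessel growth.

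The genes belong to several systems of the cell. Lrp5 is a cell-surface co-receptor for Wnt proteins, which act through beta-catenin, and Smad4 is the common partner that carries signals of the transforming growth factor beta and bone morphogenetic protein receptors to the nucleus. Rhoq encodes TC10, a small GTPase known from insulin-stimulated movement of glucose transporters in fat cells. Mbd1 binds methylated DNA and represses transcription, Zfp36l1 binds AU-rich mRNAs and leads them to decay, and Uhmk1 is a kinase that phosphorylates a splicing factor. Ptms, parathymosin, is a small acidic nuclear protein, Man2c1 is a cytosolic mannosidase that trims free oligosaccharides, and Trp53inp2 is a cofactor of nuclear receptors that also acts in autophagy. In bulk samples such as these, fewer cells of a type and less RNA per cell cannot be told apart.

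Promoter sequence was at hand for 6 of the 9 genes, in 7 windows of the 250 bases before a RefSeq start site (GRCm38.p6). They were searched on both strands for ACGTG, the core bound by HIF, for TGACGTCA, the cAMP response element, and for TGANTCA, an AP-1 site. Among 32851 promoters of the same length, 16.6% hold the first, 1.55% the second and 6.75% the third. The 3 windows with a match are shown, with the matched letters in capitals. All 3 belong to genes that read lower with adeno treatment, but each match is to a different motif. Uhmk1, which also read lower by its brightest probe set, has windows without a match. No link between motif and direction is read from this. None of the matches overlapped another.
Trp53inp2 (chr2:155381606-155381855, plus strand): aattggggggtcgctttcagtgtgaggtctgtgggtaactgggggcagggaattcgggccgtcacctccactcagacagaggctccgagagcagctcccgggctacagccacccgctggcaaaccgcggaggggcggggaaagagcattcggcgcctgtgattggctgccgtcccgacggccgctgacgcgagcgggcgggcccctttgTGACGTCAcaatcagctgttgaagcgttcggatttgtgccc
Rhoq (chr17:86962861-86963110, plus strand): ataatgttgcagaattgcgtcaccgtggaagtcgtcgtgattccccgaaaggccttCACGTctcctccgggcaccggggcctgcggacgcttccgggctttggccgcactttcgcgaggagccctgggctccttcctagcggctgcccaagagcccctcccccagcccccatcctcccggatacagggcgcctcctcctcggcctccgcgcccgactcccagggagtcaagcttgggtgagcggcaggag
Zfp36l1 (chr12:80113014-80113263, minus strand): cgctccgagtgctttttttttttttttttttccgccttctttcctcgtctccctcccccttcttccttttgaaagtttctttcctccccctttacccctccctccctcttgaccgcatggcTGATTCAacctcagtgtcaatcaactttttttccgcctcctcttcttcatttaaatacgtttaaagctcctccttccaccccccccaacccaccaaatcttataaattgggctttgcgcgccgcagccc
Trp53inp2 holds TGACGTCA at bases -41 to -34 from the start, Rhoq holds the HIF core on the other strand at -194 to -190, and Zfp36l1 holds TGATTCA at -129 to -123. In the windows of Uhmk1, Ptms and Man2c1 none of these letters was found. A match is a description of the sequence and shows no binding.

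Values are the authors' scaled intensities, and every log2 difference was taken after adding 4.7 to each value. The arrays correlated at r of 0.943 to 0.975 with one another across probe sets. Hypoxia was visible in known responders in wild type, where 11 of 11 hypoxia reference genes were above the mean of the 2 normoxic groups. In null 5 were above it and 6 below. The glucose transporter gene Slc2a1 read 836.7, 1297.1 and 1194.4 in hypoxic null cells and 1772.4, 1823 and 1666.4 in hypoxic wild-type cells, against 161.3 to 195.2 on the 4 normoxic arrays. Some arrays stood apart by their number. The 18S ribosomal control probe sets averaged 12.18 and 12.33 (log2) on the hypoxic null and wild-type number 3 arrays, against 5.98 to 10.25 on the other 8. The summed intensity of 21 stellate cell and fibroblast markers was 21695.6 and 23023.1 on the hypoxic null and wild-type number 1 arrays, 15489.1 and 17358.2 on number 2, and 7415 and 8130.3 on number 3. The sums on the normoxic arrays were 13672.2 and 14388.9 with adeno treatment and 13442.1 and 12827 without, so the 2 controls lay closer to each other in these markers than the hypoxic arrays did. The 27 hepatocyte markers summed to 51482.7 to 68227.4 in null, 51661.3 to 77808.8 in wild type, 64937.4 to 84354.6 in adeno-treated and 58219.9 to 67893.2 in untreated cells, and all 27 were bright enough to test. Of the other markers, the 6 biliary ones summed to 1295.2 to 3262.8 in null, 935.4 to 4064.5 in wild type, 515.6 to 1035.3 in adeno-treated and 559.9 to 1258.2 in untreated cells. Single genes made up much of these sums. Cldn4 read 701.3 to 1586.6 on the hypoxic arrays and 118.2 to 258.1 on the normoxic ones. Krt19 read 1602.3 and 2290.9 on the hypoxic null and wild-type number 1 arrays, and 131.2 and 132.3 on number 3. Epcam stayed at 22.4 or less and Cftr at 53.4 or less on every array. These genes were picked after their values were seen. The 13 macrophage markers summed to 903.9 to 1573.7 on the hypoxic arrays and 786.7 to 1435.1 on the normoxic ones, the 9 endothelial markers stayed at 379.7 or less and the 10 lymphocyte markers at 381.7 or less on every array.

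In normoxia, adeno treatment went with higher readings of 4 of the genes and lower readings of 5, by their brightest probe sets. This is the difference that chose them, so it is given without a test. The place of a hypoxic array is given below on the line between the controls, on the log2 scale, where 0 is the untreated mean and 1 the adeno-treated mean. In limma, none of the 7453 probe sets passed for adeno-treated against untreated (0.0%), with 619 at an unadjusted p under 0.05, and with the sample number as a replicate block 8 were higher and 10 lower. On 49.0% of all probe sets the 2 pairs of normoxic arrays did not overlap.

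**Figure D1:**
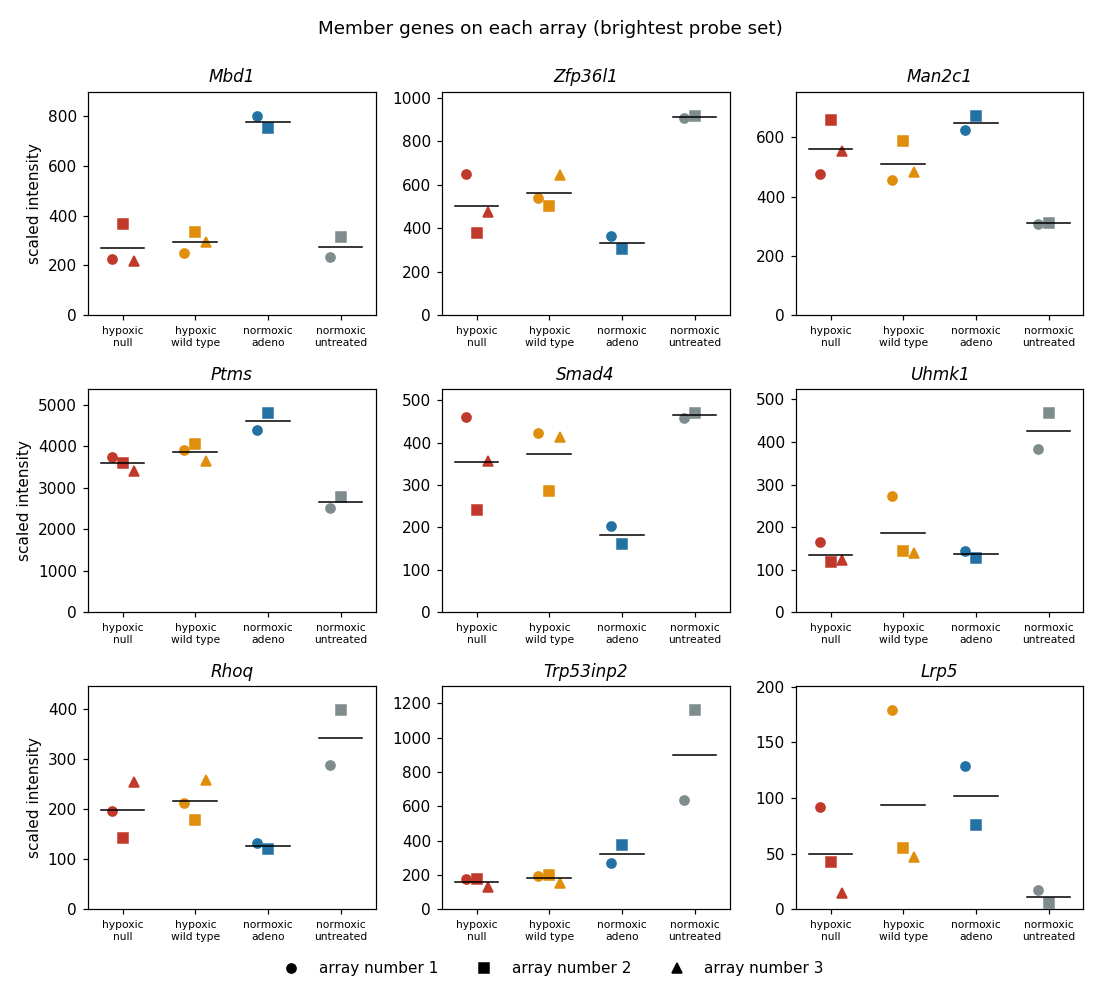
Scaled intensity (linear axis from 0) of the brightest probe set of each gene on every array, by group. Points are arrays, shaped by sample number, and lines are group means. The normoxic adeno-treated and untreated arrays do not overlap for any of the 9 genes, and Trp53inp2 is lower on all 6 hypoxic arrays than on the 4 normoxic ones.

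Among the signalling genes, Lrp5 was dim in untreated cells and read higher on both adeno-treated arrays. It read 92, 42.6 and 14.8 in hypoxic null cells, 179.3, 55 and 46.8 in hypoxic wild-type cells, 128.5 and 75.4 in normoxic adeno-treated cells, and 17.4 and 5.6 in untreated cells. The log2 difference of adeno-treated to untreated was 2.78, and it became 3.01 with an offset of 2.35 and 1.99 with one of 18.8. The untreated readings lie near these offsets and under 40.1, the mean level that a probe set needed to be tested, so the size of this difference is uncertain. All 3 wild-type arrays were above both untreated arrays, while null number 3, at 14.8, lay within the untreated range. The hypoxic groups overlapped with each other and with the adeno-treated arrays. In both hypoxic groups number 1 was highest and number 3 lowest, as the stellate cell and fibroblast sums given above were, and the part of those cells in Lrp5 was not tested.

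Smad4 read 459.3, 242.1 and 357.6 in null, 421.3, 286.1 and 412.8 in hypoxic wild-type, 202.4 and 159.9 in adeno-treated and 457.5 and 470.4 in untreated cells. Every hypoxic array was above the adeno-treated ones, and null number 1 lay within the untreated range. The group means, at places 0.33 for null and 0.25 for wild type, were on the untreated side. Number 2 was the lowest array in both hypoxic groups. The log2 difference of null was 0.91 to adeno-treated and -0.44 to untreated, and that of wild type 1.01 and -0.33.

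Rhoq read 196.1, 143.1 and 254.7 in null, 212.7, 178.2 and 257.4 in hypoxic wild-type, 132.7 and 119.4 in adeno-treated and 286.9 and 398.2 in untreated cells. The 6 hypoxic arrays filled the gap between the controls without reaching either. Null was 1.51-fold adeno-treated and 0.576-fold untreated, and wild type 1.67-fold adeno-treated and 0.637-fold untreated. The means lay near the middle, at places 0.57 and 0.47, and again number 2 was lowest in both groups.

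Of the genes of chromatin and RNA, Mbd1 read higher on both normoxic adeno-treated arrays than on the other 8. It read 224.2, 367.2 and 217.7 in null, 250.2, 334.4 and 295.5 in hypoxic wild-type, 800.1 and 751.3 in adeno-treated and 234 and 313.9 in untreated cells. The hypoxic groups, at 270 ± 84.5 in null and 293 ± 42.1 in wild type (SD, n = 3 each), overlapped with the untreated arrays, at 274 ± 56.5 (SD, n = 2). Their places were -0.03 and 0.07. The hypoxic wild-type cells, which are labelled adeno-treated too, read 0.380-fold the normoxic adeno-treated cells and 1.07-fold the untreated ones.

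Zfp36l1 read 650.6, 377.4 and 476.7 in null, 537.4, 500.7 and 644.3 in hypoxic wild-type, 364.2 and 304 in adeno-treated and 906.5 and 917 in untreated cells. All hypoxic arrays lay between the controls, with places of 0.62 for the null mean and 0.49 for the wild-type mean. Null was 1.46-fold adeno-treated and 0.539-fold untreated, and wild type 1.67-fold adeno-treated and 0.614-fold untreated. The closest approach to adeno-treated was null number 2.

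Uhmk1 depended on the probe set. Its brightest one read 165.4, 117.1 and 123.7 in null, 273.9, 144 and 139.5 in hypoxic wild-type, 144.4 and 128.6 in adeno-treated and 384.5 and 469 in untreated cells. Here the means of null and adeno-treated cells differed by less than the spread between arrays, 135 ± 26.2 (SD, n = 3) against 137 ± 11.2 (SD, n = 2), and all hypoxic arrays were below the untreated ones. Null numbers 2 and 3 were below both adeno-treated arrays, and wild-type number 1 stood above the other hypoxic arrays. A second probe set read 165.1, 265.1 and 134.3 in null, 89, 184.3 and 142.6 in wild-type, 164.9 and 175 in adeno-treated and 191.7 and 199.2 in untreated cells. Its controls did not overlap either, but they differed by a log2 of -0.20, which ranked 4452 of 7453 by size, where the -1.61 of the brightest ranked 23. The third, at 2.8 to 22.9 on all arrays, was too dim to test. It read 9.8, 8.7 and 22.9 in null and 2.8, 6.5 and 4.2 in wild type, without overlap. With adeno treatment it was higher, unlike the other probe sets, at 20.3 and 22.9 against 17.3 and 13 in untreated cells.

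Ptms was bright, and its log2 difference of adeno-treated to untreated, 0.79 (1.73-fold), was the smallest in size among the members' brightest probe sets. It read 3747.8, 3608.4 and 3413.2 in null, 3923.3, 4058.9 and 3651.8 in hypoxic wild-type, 4393.8 and 4816.5 in adeno-treated and 2519.9 and 2790.8 in untreated cells. No hypoxic array reached either control, and the means were at places 0.55 for null and 0.69 for wild type. Null was 0.780-fold adeno-treated and 1.35-fold untreated, and wild type 0.842-fold adeno-treated and 1.46-fold untreated. The name of its probe set ends in r, so related transcripts may hybridise with it.

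Man2c1, the mannosidase, lay nearer to the adeno-treated level in hypoxia. It read 474.4, 656.8 and 552.9 in null, 456.2, 586.2 and 483.9 in hypoxic wild-type, 622.5 and 672.3 in adeno-treated and 308.6 and 310.1 in untreated cells. All 6 hypoxic arrays were above the untreated pair, and null number 2 fell within the adeno-treated range. The places were 0.80 for null and 0.67 for wild type. Null was 1.79-fold untreated and 0.861-fold adeno-treated, and wild type 1.63-fold untreated and 0.783-fold adeno-treated.

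Trp53inp2 lay beyond the adeno-treated control on every hypoxic array. It read 175.9, 178 and 130.8 in null, 192.7, 202.3 and 151.9 in hypoxic wild-type, 270.6 and 377.8 in adeno-treated and 635.3 and 1164 in untreated cells. All 6 hypoxic arrays were below all 4 normoxic arrays, an order seen on 2.8% of the probe sets tested (all above on 2.63%, with 0 members), and the places were 1.69 for null and 1.57 for wild type. Null was 0.508-fold adeno-treated and 0.190-fold untreated, and wild type 0.572-fold adeno-treated and 0.215-fold untreated. The untreated pair was wide, at 900 ± 374 (SD, n = 2).

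**Figure D2:**
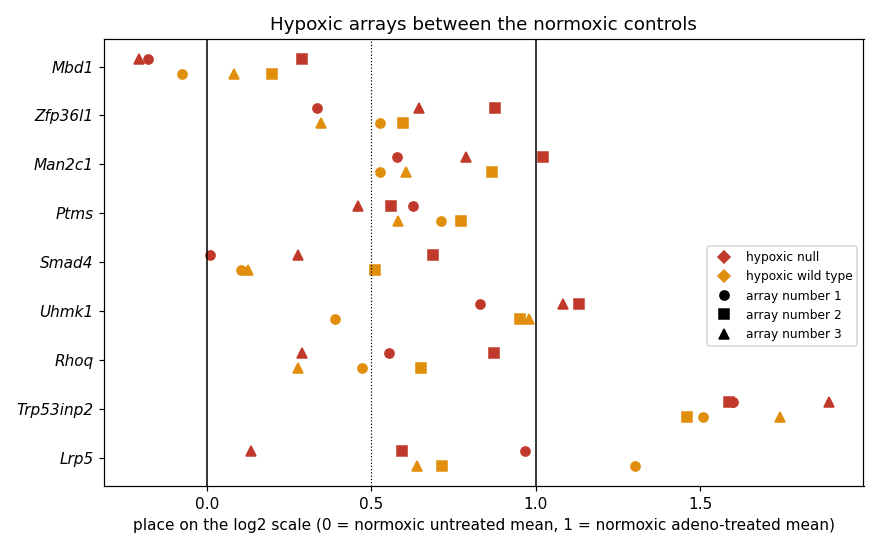
Place of each hypoxic array (x axis, log2 scale) between the normoxic untreated mean at 0 and the normoxic adeno-treated mean at 1, for the brightest probe set of each gene; the dotted line is the midpoint, colour is the group and shape the sample number. Mbd1 lies around 0, Trp53inp2 beyond 1 and most other genes in between.

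Over the 9 genes, the null mean was on the adeno-treated side of the midpoint between the controls for 7 and the wild-type mean for 5. Among all probe sets tested these shares were 56.3% and 54.8%. For Man2c1 and Trp53inp2 all 6 hypoxic arrays were on the adeno-treated side (11.9% of all probe sets), and for Mbd1 all 6 were on the untreated side (8.76%). The wild-type arrays did not overlap with the untreated ones for 8 of 9 genes (29.8% of all probe sets) and with the adeno-treated ones for 7 (24.8%). The null arrays did not overlap with the untreated ones for 6 (33.5%) and with the adeno-treated ones for 6 (25.9%). All of these counts share the control arrays with the choice of the genes, and nothing is read from them.

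If the 2 normoxic groups have equal spread, their mean does not depend on their difference. Hypoxic cells were therefore tested in limma against this mean, the midpoint. For Trp53inp2 the untreated pair was wider on the linear scale (SD 374) than the adeno-treated pair (SD 75.8, n = 2 each). On the log2 scale of the fit it was wider by less. Without untreated number 1 or 2, its wild-type difference to the midpoint was -1.73 or -1.30. Without adeno-treated number 1 or 2 it was -1.63 or -1.39. The midpoint of Trp53inp2 may therefore carry part of the choice of the genes. The spread of the fit is still shared with the arrays that chose the genes. Trp53inp2 was below the midpoint in both hypoxic groups. Its midpoint lies above the adeno-treated mean, so the difference to it also holds part of the adeno difference that chose the gene. To the adeno-treated mean alone, the log2 difference of Trp53inp2 was -0.98 in null and -0.81 in wild type, which was not tested. Its log2 difference was -1.69 in null (SE 0.24, limma adjusted p = 0.0108) and -1.51 in wild type (SE 0.24, limma adjusted p = 0.0235), lower on 6 of 6 hypoxic arrays. Over all probe sets 0.939% passed in null (0.631% higher, 0.309% lower) and 0.564% in wild type (0.47% higher, 0.0939% lower). The wild-type call ended in limma without any 1 of the 3 wild-type arrays, null number 2, adeno-treated number 2 or untreated number 2 (adjusted p of 0.0536 to 0.133). It also ended without both hypoxic number 3 arrays (limma adjusted p = 0.0730). The null call ended in limma without null number 2 (adjusted p = 0.0615) or adeno-treated number 2 (0.0675).

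None of the other genes passed against the midpoint without a block. Mbd1 was at -0.80 in null (SE 0.21, limma adjusted p = 0.138) and -0.65 in wild type (SE 0.21, limma adjusted p = 0.317). With the replicate block the null value was -0.74 (limma adjusted p = 0.0230) and the wild-type value -0.59 (0.0703). The brightest Uhmk1 probe set was at -0.83 in null (SE 0.25, limma adjusted p = 0.175) and -0.44 in wild type (SE 0.25, limma adjusted p = 0.623). Lrp5 was at 0.18 in null (95% interval -1.17 to 1.53) and 1.07 in wild type (-0.28 to 2.42), and the wild-type value passed with the replicate block (1.54, limma adjusted p = 0.0143). Zfp36l1, Rhoq, Ptms, Smad4 and Man2c1 were between -0.17 and 0.34 in both groups. The block called 394 probe sets higher and 492 lower in null, against 47 and 23 without it, and 226 higher and 229 lower in wild type, against 35 and 7.

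**Figure D3:**
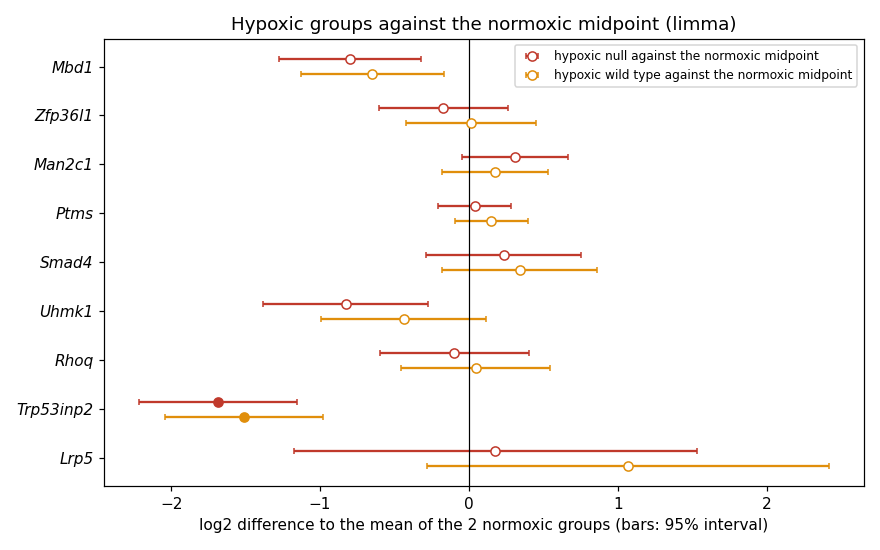
Log2 difference of hypoxic null and hypoxic wild-type cells (3 arrays each) to the mean of the 2 normoxic groups in limma, with 95% intervals; filled points passed at an adjusted p of 0.05. Trp53inp2 is the one gene with filled points, at -1.69 and -1.51.

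Hypoxic null and hypoxic wild-type cells were compared on the 6 hypoxic arrays alone, none of which chose the genes. No member passed in limma, and none of the 10 tested probe sets of the members had groups without overlap (6.78% of all probe sets). Null was the lower of the 2 for 8 of 9 genes by their brightest probe sets, against 45.0% of all probe sets, and Man2c1 was the exception. The log2 differences were -0.15 for Mbd1 (95% interval -0.74 to 0.43), -0.19 for Zfp36l1 (-0.74 to 0.36) and -0.11 for Ptms (-0.42 to 0.20). They were -0.11 for Smad4 (-0.76 to 0.54), -0.15 for Rhoq (-0.75 to 0.45) and -0.17 for Trp53inp2 (-0.67 to 0.32). Man2c1 was at 0.14 (-0.32 to 0.60). The brightest Uhmk1 probe set was at -0.39 (-1.08 to 0.30), the second Uhmk1 probe set at 0.43 (-0.36 to 1.22) and Lrp5 at -0.89 (-2.46 to 0.68). Over all 7453 probe sets limma called 0 (0.0%), with 186 at an unadjusted p under 0.05, and with the replicate block 1 higher and 1 lower. Every member had a limma adjusted p of 0.999983, and the intervals include differences in both directions. Set side by side by sample number, null was below wild type in all 3 pairs for Lrp5, Rhoq, the brightest Uhmk1 probe set, Ptms and Trp53inp2 (5 of 9 genes, against 14.4% of all probe sets), and above it in all 3 for Man2c1 (1 of 9, against 18.3%). With the replicate block the members' limma adjusted p ranged from 0.308 for Lrp5 to 0.828 for Smad4, so none passed.

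Within both hypoxic groups, the number 2 arrays were the nearest to the adeno-treated side for 5 of the 9 genes, namely Mbd1, Zfp36l1, Man2c1, Smad4 and Rhoq. The brightest Uhmk1 probe set had this in null alone. The same was seen on 21.0% of all probe sets. Across the genes, the median place was 0.58, 0.87 and 0.46 on null number 1, 2 and 3, and 0.53, 0.72 and 0.58 on wild-type number 1, 2 and 3. Number 2 minus the mean of numbers 1 and 3 was taken over both hypoxic groups. It was 0.51 for Mbd1, 0.34 for Man2c1, -0.63 for Smad4, -0.51 for Rhoq, -0.39 for Zfp36l1 and -0.35 for the brightest Uhmk1 probe set. Each of these was in the direction of adeno-treated minus untreated. The second Uhmk1 probe set was opposite, at 0.75 against an adeno difference of -0.20, so Uhmk1 depended on the probe set here too. For Ptms the number 2 difference was in that direction too but near 0 (0.057), and for Lrp5 (-0.29) and Trp53inp2 (0.23) it was opposite. The 18S controls of the number 2 hypoxic arrays, at 8.66 in null and 7.38 in wild type, were within the range of the normoxic arrays. So were those of number 1, at 8.14 in null and 8.97 in wild type, and the part of RNA quality was not tested. This pattern was noticed after the values were seen.

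**Figure D4:**
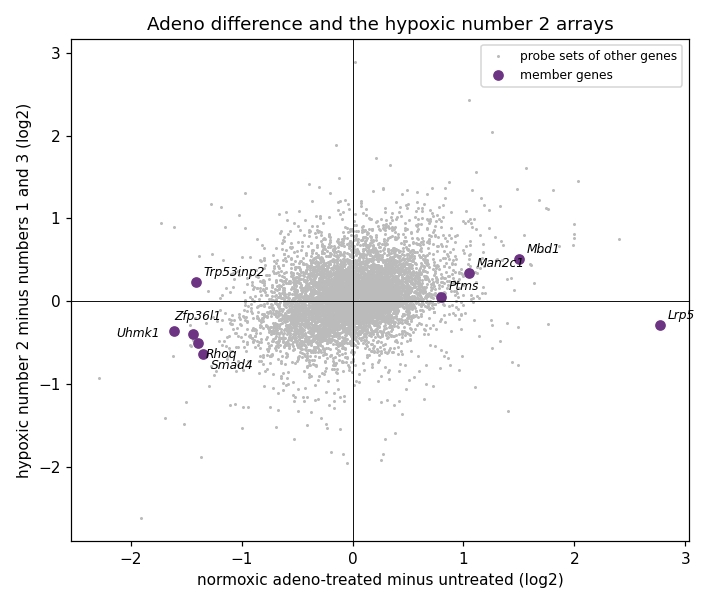
Log2 difference between hypoxic number 2 arrays and hypoxic numbers 1 and 3 (y axis) against adeno-treated minus untreated in normoxia (x axis), for the 9 genes by brightest probe set and for 7443 probe sets of other genes. The 2 axes share no array, and for 7 of the 9 genes both values have the same sign, with Ptms near 0 on the y axis (0.057). The share with the same sign was not counted over all probe sets. The second tested Uhmk1 probe set, not drawn, has opposite signs (-0.20 on x and 0.75 on y). Over the 7443 probe sets of other genes the 2 differences correlate at r = 0.33, so the pattern is not particular to the 9 genes.

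Relatives and partners of the members, 221 genes in 15 lists, gave 123 genes on 145 tested probe sets. In limma none of them passed for adeno-treated against untreated (0.0% of all probe sets, 9 of the 145 at an unadjusted p under 0.05), nor for null against wild type in hypoxia (2 of the 145). Of the other SMADs and their repressors, 6 of 6 tested genes had a lower mean with adeno treatment, as did 50.6% of all probe sets, with a median log2 difference of -0.29 against -0.01 over all probe sets. None of the 6 passed, the smallest limma adjusted p being 0.601 for Tgif1, and this list is singled out among 15 after its values were seen. Smad1, which carries bone morphogenetic protein signals, read 170.2 and 171.7 in adeno-treated and 224.8 and 256.6 in untreated cells. Of 7 tested Wnt receptors, singled out in the same way, 6 had a lower mean, with a median of -0.31, and none passed. Lrp6, the close relative of Lrp5, was opposite to it in normoxia, at 133.2 and 111.9 in adeno-treated against 200.1 and 198.4 in untreated cells (log2 -0.69, SE 0.20, limma adjusted p = 0.494). Its hypoxic readings were 148.8, 158.3 and 166.4 in null and 202.2, 178.2 and 150.4 in wild type.

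Tgfb1, a ligand whose signal Smad4 carries, read 110.3 and 96.9 in adeno-treated against 15.5 and 15.9 in untreated cells (log2 2.41, SE 0.995, limma adjusted p = 0.575). Its untreated readings lie under 40.1, the mean level needed for testing, so the size of this difference is uncertain. In hypoxia Tgfb1 spread from 65 to 296.8 in null and from 15.2 to 206.4 in wild type. The receptor gene Acvr2a read 46.7 and 28.2 against 92.5 and 75.1 in the same 2 controls (limma adjusted p = 0.494). Cdkn1a, a cell cycle inhibitor induced by SMADs, read 913.2 and 760.2 in adeno-treated against 488.2 and 201.4 in untreated cells, and 919.4 to 2192.4 on the hypoxic arrays. By the sign of the normoxic difference alone, the 8 tested genes of methyl-CpG binding split 4 and 4, the 16 of AU-rich mRNA decay 8 and 8, and of 18 autophagy genes 7 were higher and 11 lower. Of 9 mannosidase and glycan trimming genes 3 were higher and 6 lower, and of 4 Uhmk1 partners and substrates 4 were higher. Ligands and receptors of SMAD signalling (3 higher and 3 lower each), SMAD targets (4 and 4), Wnt ligands and inhibitors (3 and 2), Wnt transducers (7 and 7), low density lipoprotein receptor relatives (2 and 1) and prothymosin relatives (1 and 1) were split.

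Against the normoxic midpoint, 2 relatives passed in limma in null (13 of 145 probe sets at an unadjusted p under 0.05) and 0 in wild type (16 of 145). Over all probe sets 0.939% passed in null and 0.564% in wild type. Tgif1, a repressor of SMAD transcription, rose in null to 1067, 1506.4 and 1694.4, against 510 and 320.3 in adeno-treated and 845.7 and 575.6 in untreated cells (log2 1.39, SE 0.27, limma adjusted p = 0.0465). Its wild-type readings of 816.7, 1230.6 and 1483.9 overlapped with those of null. H1f2, a linker histone, fell in null to 360, 255.4 and 161, against 616 and 1446.6 in adeno-treated and 627.7 and 1067.2 in untreated cells (log2 -1.82, SE 0.34, limma adjusted p = 0.0415). Its wild-type readings of 508.4, 492.8 and 409.2 were also below all normoxic ones. Linker histone H1 is a known binding partner of parathymosin.

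Over the 10 arrays, the probe set of another gene that ran most like each member was found among 6712. It was Polr1d for Lrp5 (r = 0.93), Myh9 for Smad4 (0.94), Phf7 for Rhoq (0.96), Txn2 for Mbd1 (0.94), Tbc1d14 for Zfp36l1 (0.93), Csnk1a1 for Uhmk1 (0.95), Igdcc3 for Ptms (0.93), Rce1 for Man2c1 (0.95) and Hbs1l for Trp53inp2 (0.96). These correlations describe 10 arrays in 4 groups and are the highest of many. Txn2, of mitochondrial thioredoxin, had the outline of Mbd1 at smaller size: 1004.2, 1028.5 and 952.1 in null, 1015, 1098.3 and 1063.7 in wild type, 1316.5 and 1302.5 in adeno-treated and 1021.4 and 985.3 in untreated cells. Myh9, a non-muscle myosin heavy chain, read 1477.7, 719.2 and 1019.7 in null, 1555.7, 1137.2 and 1315.4 in wild type, 720.9 and 659.2 in adeno-treated and 1316.5 and 1411.4 in untreated cells. Like Smad4, it was lowest at number 2 in both hypoxic groups. Csnk1a1, a kinase of the Wnt pathway, read 622, 545.8 and 559.2 in null, 811.9, 592.7 and 495.1 in wild type, 594 and 576.6 in adeno-treated and 801.3 and 940.2 in untreated cells.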

How the data were processed

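Mouse hepatocyte RNA was hybridised to 10 arrays, 1 per sample. The authors deposited linear intensity values, and the mean of each array, trimmed at percentiles 2 and 98, came to 199.6 to 200.0, so arrays share 1 scale. Neither labels nor headers state how scans became values, and the number of arrays limits the precision. Before log2, 4.7 was added (percentile 10 over all arrays). The 66 control probe sets and the dimmest 40% were left out. Of 12488 probe sets, 10855 carried 1 gene symbol, 396 several and 1237 none; names were updated through GRCm38.p6.

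limma 3.58.1 in R 4.3.3 (lmFit, eBayes with an intensity trend, two-sided, Benjamini-Hochberg over 7453 probe sets, threshold 0.05) was fitted to 4 group means of 10 arrays. Null against wild type used the 6 hypoxic arrays, with 4 residual degrees of freedom. The scripts were tested on simulated data. Members, lists and rules were chosen with earlier results of these data known. Named genes are the members, their most similar probe sets and up to 2 genes of smallest p per list and comparison; Slc2a1 was a check. Sample numbers were read as pairing the arrays. Deviations from group means correlated at 0.541 to 0.677 for hypoxic pairs of the same number. Over all 13 same-number pairs r was 0.103 or more. With 2 arrays in a group the deviations mirror each other, so pairs with normoxic arrays are not independent of one another. The main fits held no block for the sample number. Alternatives were 2 offsets, 2 filters, 2 normalizations, a replicate block, no trend and left-out arrays. The separate result of 1 of the 15 lists is not reported here.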

Additional observations from a re-analysis of the deposited data

How the results depend on the processing

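Genes with the hypoxic mean on the adeno-treated side numbered 5 to 7 of 9 in null and in wild type under the 2 offsets, the 2 normalizations and each left-out array. Without 1 array at a time, probe sets called in limma were 11 to 65 higher and 2 to 33 lower in null against the midpoint, 14 to 37 and 1 to 6 in wild type, and 0 in either direction both for null against wild type and for adeno-treated against untreated. Wild type had 4 lower with no filter, 4 with no intensity trend and 2 without both hypoxic number 3 arrays, where null had 38 lower. The replicate block gave 394 higher and 492 lower in null, 226 and 229 in wild type, 1 and 1 for null against wild type (1 and 7 with all 10 arrays in that fit, an alternative added after seeing the data), and 8 and 10 for adeno-treated against untreated. Beside the values given with the results, it changed no other member's call. Members near 0 changed sign. Against the midpoint in wild type, Zfp36l1 was -0.026 and Rhoq -0.12 with the replicate block, and they were -0.087 and -0.085 without the number 3 arrays. In null, Ptms was -0.029 with median scaling, and the second Uhmk1 probe set was 0.067 with the replicate block and 0.20 without the number 3 arrays. Without 1 array at a time, wild type ranged from -0.087 to 0.093 for Zfp36l1 and from -0.085 to 0.17 for Rhoq. Null ranged from -0.28 to 0.20 for the second Uhmk1 probe set, -0.38 to 0.78 for Lrp5, -0.37 to 0.014 for Zfp36l1 and -0.30 to 0.11 for Rhoq. Null minus wild type ranged from -0.32 to 0.14 for Smad4 and from -0.34 to 0.063 for Rhoq. Except where fewer arrays entered, the cause was not tested. A left-out normoxic array leaves 1 in its group, which is then assumed to vary like the others.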

Other observations

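The number 2 pattern was not limited to the 9 genes. Across 7443 probe sets of other genes, adeno-treated minus untreated correlated with hypoxic number 2 minus numbers 1 and 3 at r = 0.33, over arrays that the 2 differences do not share. It was 0.24 in null and 0.33 in wild type alone. With number 1 or number 3 set against the rest, r was -0.13 and -0.09. Probe sets are not independent replicates, and no p is given.

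Among adenovirus receptor and interferon genes, 12 of the 22 on the arrays were bright enough to test, and 0 passed in limma for adeno-treated against untreated (1 of 16 probe sets at an unadjusted p under 0.05). By sign 7 of the 12 genes were higher and 5 lower. The coxsackie and adenovirus receptor gene Cxadr read 123.3, 88.5 and 216.5 in null, 146.3, 139.3 and 316.1 in wild type, 173.2 and 220.3 in adeno-treated and 216.1 and 180 in untreated cells. The probe set under 0.05 was one of Irf7, an inducer of interferon genes, at 79.1 and 43.9 in adeno-treated against 43.8 and 17.5 in untreated cells (log2 0.96, limma adjusted p = 0.582). A brighter Irf7 probe set went the other way, at 86.3 and 81.4 in adeno-treated against 101.9 and 103.1 in untreated cells. Irf9, a subunit of the factor that interferon activates, read 140.7 and 122.5 in adeno-treated against 221.3 and 186.8 in untreated cells (log2 -0.61, limma adjusted p = 0.613). The interferon-induced genes Ifit1 and Mx1 were dim on every array. Cxadr, Ifit1 and Mx1 were chosen after their values were seen.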
